A study of Drosophila melanogaster with 110 samples.

Results

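The Iroquois complex of Drosophila melanogaster consists of 3 neighbouring genes on chromosome arm 3L, araucan (ara), caupolican (caup) and mirror (mirr). Its chromatin was described from 76 ChIP-seq peak lists, 1 for each library, by taking every peak that overlapped the span of a gene or the 20000 bp on either side of it. Of 272688 peaks in all lists, 540 lay in these 3 windows. A further 132 lay only in the 31840 bp between the caup and mirr windows, for 672 peaks in the whole span, and they are given as belonging to this gap.

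Kc167 cells, an embryo-derived line labelled as hemocytes, were transfected with double-stranded RNA and harvested after 4 days. In rumpkd cells the RNA was directed against rump, which encodes the RNA-binding protein Rumpelstiltskin, and in mock cells against GFP. There were 3 rumpkd and 3 mock libraries for 12 targets, and 2 and 2 for trimethylated lysine 27 of histone H3 (H3K27me3). Peak lists hold no transcript or protein levels, so neither the depletion of Rump nor the expression of the Iroquois genes could be checked, and a cell line stands for none of the tissues in which these genes act.

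The Iroquois genes encode homeodomain transcription factors of the TALE class. In the fly, ara and caup are known for the prepattern of bristles on the notum and of veins in the wing, and mirr for the dorsal part of the eye and for the follicle cells of the egg chamber. Polycomb group (PcG) proteins keep such developmental genes silent: sequence-specific factors such as Pho, Combgap (Cg) and Crooked legs (Crol) bind Polycomb response elements, PRC2 with E(z) and Su(z)12 methylates H3K27, and PRC1 with Pc, Psc and Ph joins it. Insulator proteins, here CP190, CTCF, Su(Hw) and Mod(mdg4) (labelled MOD), bind between and within such domains.

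In the dm6 assembly all 3 genes lie on the plus strand, ara (FBgn0015904) at chr3L:12580672-12596018, caup (FBgn0015919) at chr3L:12609631-12621798 and mirr (FBgn0014343) at chr3L:12693639-12710249. Between caup and mirr lie 4 genes of long noncoding RNAs, lncRNA:CR32111, lncRNA:CR43431, lncRNA:CR44553 and lncRNA:CR44552. On the left, sowah is transcribed away from ara and starts at position 12572542. A PcG site was taken to be a Ph region that met regions of both Psc and Pho, where each of these targets needed a peak in at least 3 of its 6 libraries. There were 7 of them in the windows and 1 in the gap, of 421 in the genome.

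The sequences of 5 of these 8 sites are shown because Pho is known to bind the letters GCCAT. These are up to 300 bases around the Ph summit on the plus strand of dm6, in lower case, with GCCAT or its complement ATGGC in capitals. The first 3 are the sites with the strongest Ph enrichment, the fourth lies far from any gene start, and the last lies in an exon of mirr and holds no match. The caup sequence was ended at the last base before the gene. The sequences labelled mirr start and lncRNA:CR43431 start are named after their Ph regions, which overlap these starts. Both printed stretches lie upstream of the gene and do not contain its start.
caup start, chr3L:12609352-12609630: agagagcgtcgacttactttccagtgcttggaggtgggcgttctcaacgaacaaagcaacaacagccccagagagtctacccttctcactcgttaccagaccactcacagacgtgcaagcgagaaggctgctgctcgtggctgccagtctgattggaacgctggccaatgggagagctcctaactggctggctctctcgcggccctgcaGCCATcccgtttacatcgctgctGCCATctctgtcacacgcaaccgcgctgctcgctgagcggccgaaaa
lncRNA:CR43431 start, chr3L:12653184-12653483: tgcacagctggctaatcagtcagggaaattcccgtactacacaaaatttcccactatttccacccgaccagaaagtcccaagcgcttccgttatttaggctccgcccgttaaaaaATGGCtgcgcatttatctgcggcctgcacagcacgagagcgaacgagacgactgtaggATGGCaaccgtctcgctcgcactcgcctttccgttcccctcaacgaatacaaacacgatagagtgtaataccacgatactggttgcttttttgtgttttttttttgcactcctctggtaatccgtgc
mirr start, chr3L:12692839-12693138: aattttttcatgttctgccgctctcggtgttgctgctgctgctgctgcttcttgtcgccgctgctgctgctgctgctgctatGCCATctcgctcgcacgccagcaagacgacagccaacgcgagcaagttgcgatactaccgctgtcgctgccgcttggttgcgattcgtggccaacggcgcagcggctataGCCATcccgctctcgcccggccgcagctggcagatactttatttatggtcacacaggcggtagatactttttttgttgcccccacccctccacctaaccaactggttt
18.9 kb upstream of mirr, chr3L:12674645-12674944: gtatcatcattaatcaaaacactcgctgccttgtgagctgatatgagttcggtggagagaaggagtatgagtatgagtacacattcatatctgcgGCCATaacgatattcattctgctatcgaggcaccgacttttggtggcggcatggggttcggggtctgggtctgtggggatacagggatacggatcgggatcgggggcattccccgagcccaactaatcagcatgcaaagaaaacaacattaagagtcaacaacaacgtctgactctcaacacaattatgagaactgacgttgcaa
mirr exon, chr3L:12696572-12696871: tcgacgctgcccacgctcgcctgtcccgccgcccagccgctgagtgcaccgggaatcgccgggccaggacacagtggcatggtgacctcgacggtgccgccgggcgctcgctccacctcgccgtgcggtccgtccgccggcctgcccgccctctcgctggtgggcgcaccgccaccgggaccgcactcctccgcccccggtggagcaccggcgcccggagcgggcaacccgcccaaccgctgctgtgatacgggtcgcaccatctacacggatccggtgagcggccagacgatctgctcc

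GCCAT on either strand was found in the 300 bases around the Ph summit at 4 of the 7 PcG sites in the windows, at caup, 18.9 kb and 2.92 kb upstream of mirr and at the mirr start. The share was 64.5% of 408 PcG sites on the chromosome arms and 57.6% of 3364 Ph regions. The letters GAGAG, of the type bound by GAGA factor, were present at 5 of the 7 sites, against 71.3% of all PcG sites and 41.1% of Ph regions. No site in the windows held GTGTGT, a Combgap type of motif, against 41.2% of all PcG sites and 18.1% of Ph regions. The motifs do not overlap each other in their letters, both strands were searched, and a match is a description of the sequence only.

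**Figure D1:**
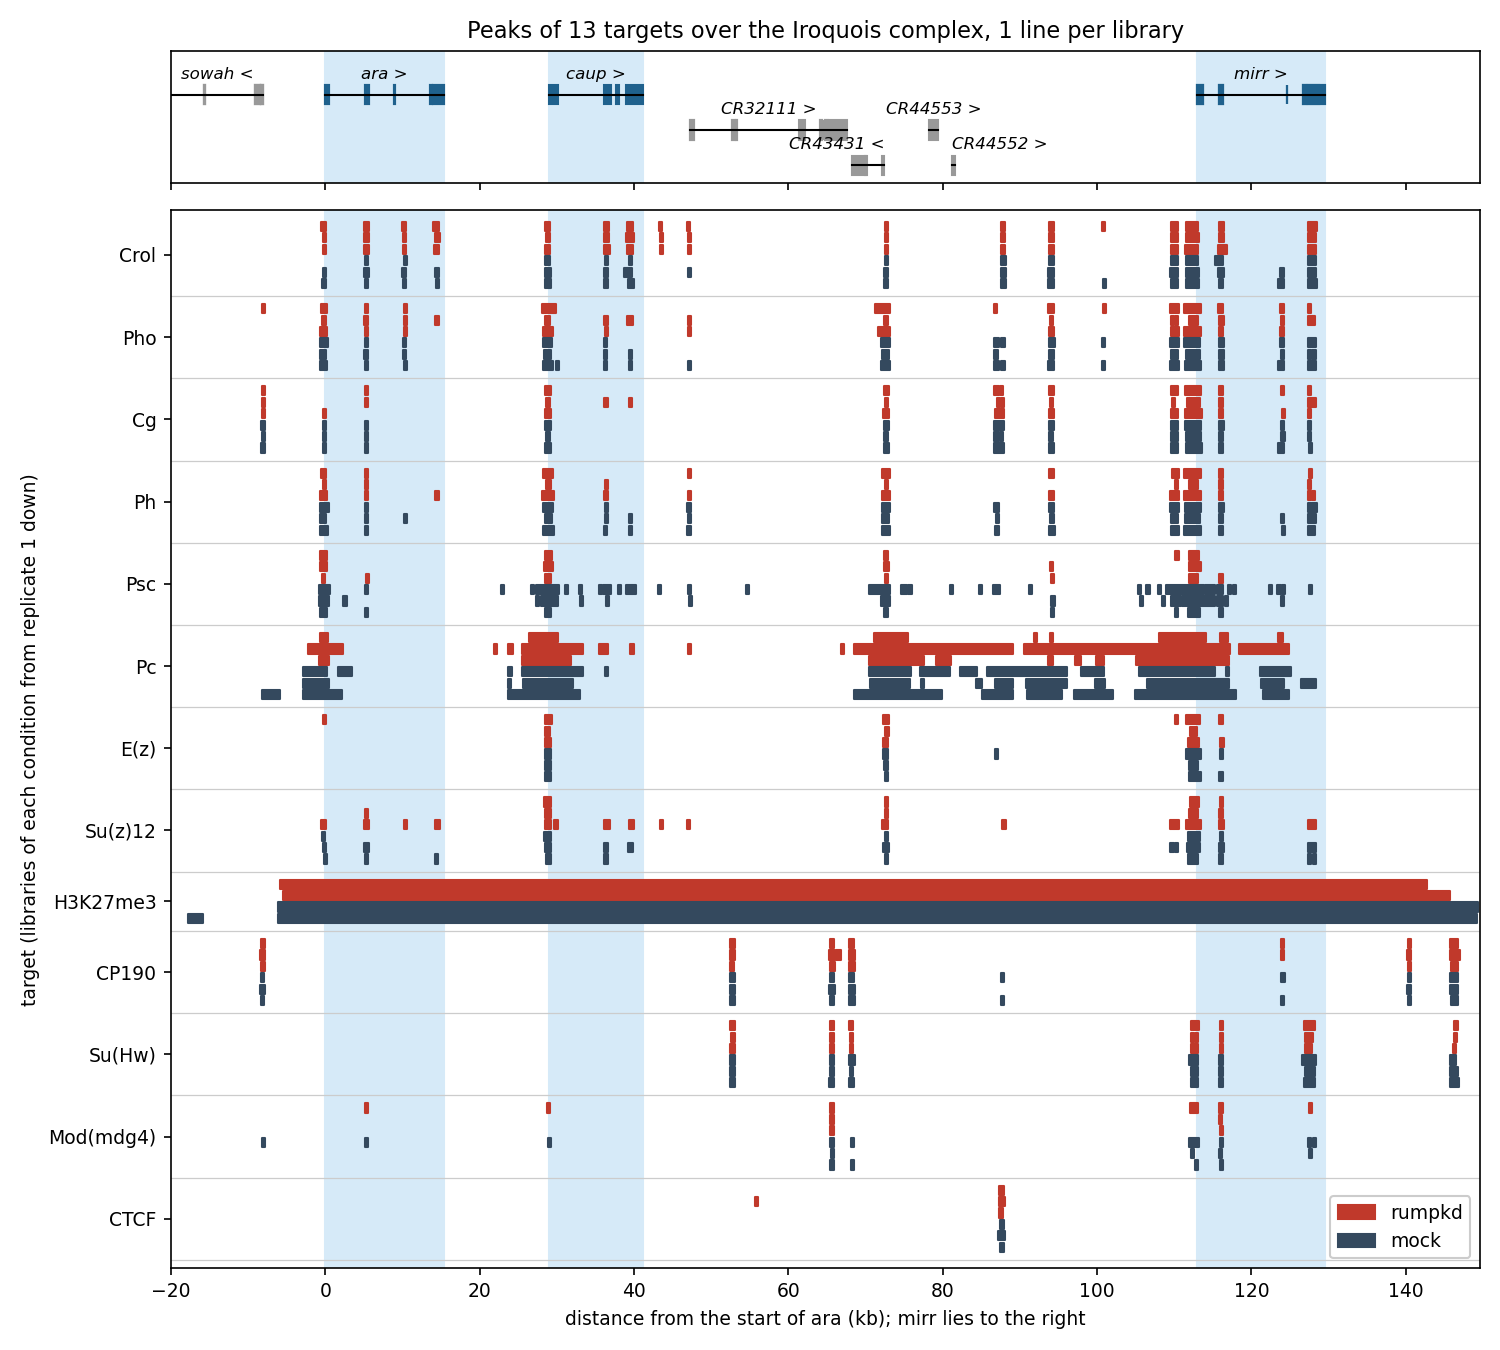
Peaks of each library (1 line each, rumpkd above mock) for 13 targets against distance from the start of ara in kb, with exons drawn above, the 3 Iroquois genes shaded and the shortest peaks widened to stay visible. H3K27me3 formed 1 domain over all 3 genes in every library, and the PcG proteins Ph, Psc and Pho stood together at the gene starts and at the start of lncRNA:CR43431.

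H3K27me3 covered 100% of ara, of caup and of mirr in all 4 libraries. It formed 1 broad peak, 148.6 and 151.2 kb long in rumpkd cells and 155.5 and 155.4 kb long in mock cells, which ranked between the 3rd and the 4th largest of the 296 to 452 H3K27me3 domains of 2000 bp or more in a library. Its fold enrichment over input, a mean over the peak as MACS2 gave it, was 4.20 and 4.45 in rumpkd libraries and 4.00 and 3.74 in mock libraries.

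The domain began right of sowah in all libraries, 2274 and 2645 bp from its start in rumpkd cells and 1932 and 1977 bp in mock cells. A CP190 region with a peak in all 6 libraries lay over the sowah start, and the domain began 1984 and 2355 bp beyond it in rumpkd cells and 1642 and 1687 bp beyond it in mock cells. On the right the domain ended at position 12723416 and 12726368 in rumpkd libraries, against 12729981 and 12729880 in mock libraries. In rumpkd cells these ends fell 2971 and 19 bp short of a region with CP190 and Su(Hw) peaks in all 6 libraries of each, and in mock cells they passed its start by 3594 and 3493 bp. Each end of the domain thus lay further inward in both rumpkd libraries than in both mock libraries. This was so for 24% of 167 domains that had a single counterpart in all 4 libraries, and both rumpkd domains were the shorter ones for 49.1% of them. The cover of the mirr window was 87.9% and 93.1% in rumpkd libraries and 99.5% and 99.3% in mock libraries, groups that did not overlap (exact permutation test, two-sided p = 0.333, the smallest that 2 against 2 libraries allow). The −log10 q of the domain was 18.2 and 17.3 in rumpkd libraries and 21.8 and 23.5 in mock libraries, so that a minimum of 20 removed it from both rumpkd lists and turned the difference in gene cover from 0 into -100 points. Of all H3K27me3 peaks, 16.3% and 17.1% reached this minimum in the rumpkd lists and 31.8% and 26.5% in the mock lists.

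**Figure D2:**
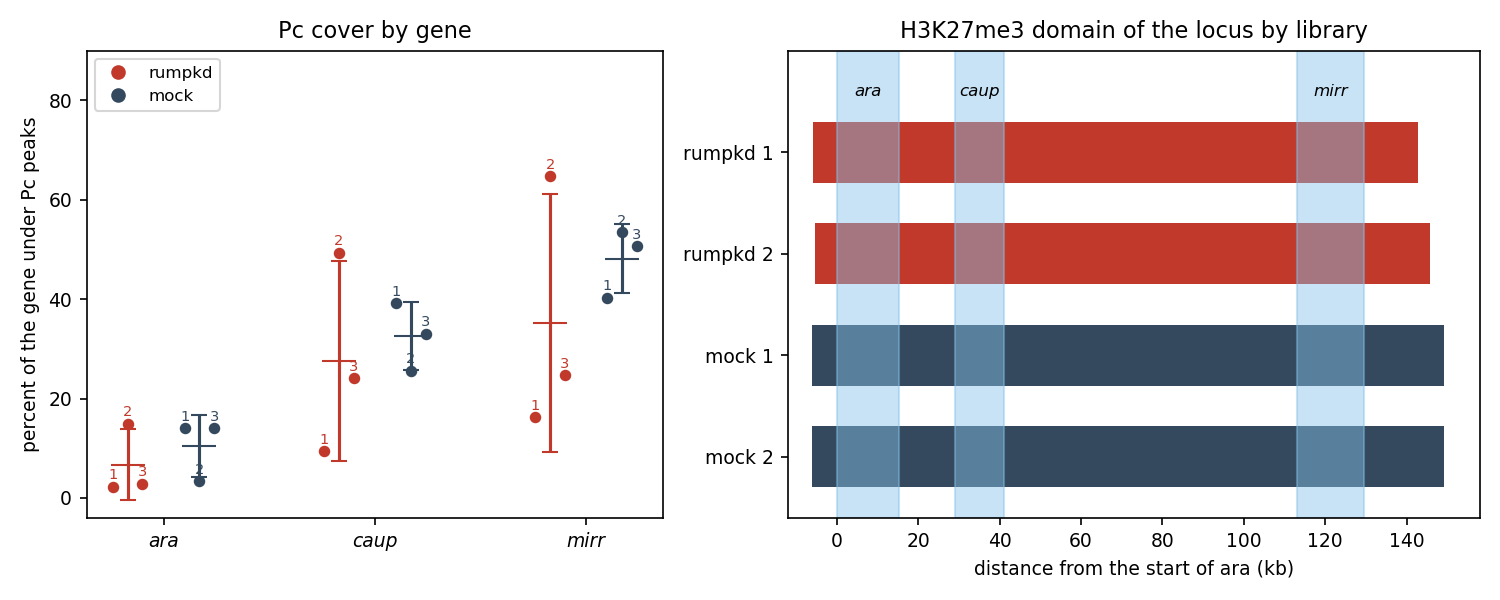
Left, percent of each Iroquois gene under broad Pc peaks, with 1 point per library marked by its replicate number and bars for mean and SD (rumpkd left of mock). Right, the extent of the H3K27me3 domain in each library in kb from the start of ara, with rumpkd libraries above mock libraries. Pc covered mirr most and ara least on average in both conditions, and both rumpkd H3K27me3 domains ended left of both mock domains.

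Pc, the PRC1 subunit that binds H3K27me3, covered the genes only in part, and less of ara than of caup and mirr. Pc peaks covered 2.27%, 15.0% and 2.89% of ara in the 3 rumpkd libraries and 14.0%, 3.36% and 14.0% in the 3 mock libraries. The values for caup were 9.39%, 49.3% and 24.1% in rumpkd cells and 39.2%, 25.6% and 33.1% in mock cells. For mirr they were 16.2%, 64.7% and 24.7% in rumpkd cells and 40.3%, 53.4% and 50.6% in mock cells. Rumpkd replicate 2 had the highest cover of each gene and the other 2 rumpkd libraries the lowest, so that the groups overlapped at every gene. Mean cover of ara was 6.71 ± 7.15% in rumpkd cells and 10.5 ± 6.16% in mock cells (SD, n = 3 each). For caup it was 27.6 ± 20.2% in rumpkd cells and 32.6 ± 6.81% in mock cells, and for mirr 35.2 ± 25.9% in rumpkd cells and 48.1 ± 6.92% in mock cells. Differences without rumpkd replicate 2 were -7.89 points for ara and -27.7 points for mirr, against -1.55 and -3.43 points without rumpkd replicate 1. With all libraries the difference in means was -3.77 points for ara, -5.05 points for caup and -12.9 points for mirr, with two-sided p by the exact permutation test of 0.6, 0.7 and 0.4 (3 libraries per condition, smallest possible p 0.1). The same libraries differed over the genome, where Pc peaks covered 855, 2715 and 1465 kb in rumpkd libraries and 1911, 1909 and 2245 kb in mock libraries, and the part of this in the cover of the genes was not tested.

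Of 10 Pc regions in the windows, 3 had a peak in every library, over the start of ara (chr3L:12577719-12584150), over the start of caup (chr3L:12604289-12614058) and over a stretch from the exons of lncRNA:CR43431 into mirr (chr3L:12649180-12698607). The fold enrichment of the strongest Pc peak at ara was 3.54, 3.40 and 3.39 in rumpkd libraries and 3.57, 4.40 and 3.71 in mock libraries. At caup it was 3.76, 4.68 and 4.47 in rumpkd libraries and 3.21, 5.50 and 4.42 in mock libraries. In the stretch that reached mirr it was 3.66, 3.95 and 4.11 in rumpkd libraries and 3.93, 4.44 and 4.45 in mock libraries. Except in rumpkd replicate 2, these highest values belonged to the peak at the start of lncRNA:CR43431. At the mirr start itself Pc was 3.42, 3.95 and 3.77 in rumpkd libraries and 3.25, 4.19 and 4.42 in mock libraries. All rumpkd libraries lay below all mock libraries at ara, by a narrow margin (3.54 in the highest rumpkd and 3.57 in the lowest mock library), as at 1.15% of 260 Pc regions with a peak in all libraries. The groups overlapped at caup and mirr.

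Within the domain the PcG sites differed widely from each other in strength. The strongest for Ph by mean percentile was the site at the start of lncRNA:CR43431 in the gap, at chr3L:12652773-12653857. Its Ph fold enrichment at the summit was 38.4, 22.3 and 46.2 in rumpkd libraries and 40.4, 34.5 and 41.0 in mock libraries. It ranked 58th, 71st and 16th among all PcG sites in rumpkd libraries and 42nd, 61st and 27th in mock libraries. It was also the strongest Pho region of the whole span, with a Pho enrichment of 30.0, 20.4 and 35.4 in rumpkd libraries and 29.0, 22.5 and 24.2 in mock libraries. It lay 40.3 kb upstream of mirr and outside the windows of all 3 genes.

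The sites at the starts of caup and mirr came next. At caup (chr3L:12608799-12610333) Ph enrichment was 36.1, 28.5 and 33.8 in rumpkd libraries and 30.9, 29.5 and 30.1 in mock libraries. At the mirr start (chr3L:12691899-12694115) it was 34.9, 33.3 and 33.6 in rumpkd libraries and 33.2, 27.4 and 26.8 in mock libraries. Rumpkd libraries all lay above mock libraries at mirr, as at 2.36% of 975 Ph regions with a peak in all libraries, while the groups overlapped at caup. The log2 difference was 0.39 ± 0.19 (SE) at mirr and 0.28 ± 0.20 at caup, and neither passed limma (adjusted p = 0.861 for both).

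These sites at caup and mirr carried every PcG target. E(z), the methyltransferase of PRC2, had a peak in all 6 libraries in the windows only there. Its enrichment at the mirr start was 30.6, 10.9 and 18.4 in rumpkd libraries and 23.7, 18.7 and 10.3 in mock libraries. At caup it was 22.1, 10.8 and 13.4 in rumpkd libraries and 12.4, 12.5 and 8.81 in mock libraries. The spread within a condition exceeded the difference between conditions at each site, with log2 differences of -0.06 ± 0.24 and 0.20 ± 0.22. Su(z)12, its partner in PRC2, had peaks in all 6 libraries at the same starts and also in the mirr exon. It was 10.6, 7.12 and 17.7 at the mirr start in rumpkd libraries and 10.3, 16.2 and 10.3 in mock libraries, and in the mirr exon 3.76, 6.93 and 16.0 in rumpkd libraries and 4.41, 12.3 and 9.58 in mock libraries. The highest and the lowest value each came from a rumpkd library at both sites. Outside the windows, the lncRNA:CR43431 site in the gap also had E(z) and Su(z)12 peaks in all 6 libraries. E(z) there was 8.22, 6.51 and 5.96 in rumpkd libraries and 5.61, 11.7 and 5.66 in mock libraries. Su(z)12 there was 7.48, 5.97 and 11.7 in rumpkd libraries and 3.88, 12.8 and 8.97 in mock libraries.

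Psc, a core PRC1 subunit, was strongest at the same starts. At mirr its enrichment was 46.7, 41.8 and 32.8 in rumpkd libraries and 44.9, 40.4 and 66.7 in mock libraries. At caup it was 38.2, 37.2 and 30.1 in rumpkd libraries and 35.7, 41.3 and 60.7 in mock libraries. Mock replicate 3 stood highest at each, and neither differed by limma (adjusted p of 0.850 at mirr and 0.878 at caup). Among PcG sites with a Psc peak these ranked between 6th and 12th at mirr and between 13th and 22nd at caup in rumpkd libraries, and between 5th and 11th at mirr and 9th and 22nd at caup in mock libraries.

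The start of ara carried less. Its Ph enrichment (chr3L:12579978-12581091) was 8.18, 4.98 and 14.8 in rumpkd libraries, all below the 15.6, 17.3 and 18.5 of mock libraries. Ph separated in this direction at 10.3% of 975 regions with a peak in all libraries. The log2 difference of -0.85 ± 0.40 did not pass limma (adjusted p = 0.861). Psc at ara was 8.71, 9.91 and 5.56 in rumpkd libraries and 15.8, 11.7 and 15.5 in mock libraries, again without overlap, as at 22.9% of 218 Psc regions. The median log2 difference in Psc over these 218 was -0.42 before centring, and ara had a log2 difference of -0.37 ± 0.23 after centring (limma adjusted p = 0.726). Pho was 9.50, 4.64 and 9.96 in rumpkd libraries and 8.98, 8.31 and 9.65 in mock libraries, and these groups overlapped. E(z) had a peak at ara in rumpkd replicate 1 alone, Su(z)12 in 1 rumpkd and 3 mock libraries, and Cg in 1 rumpkd and 3 mock libraries. The 3 members thus shared 1 H3K27me3 domain, while PRC2 peaks in every library stood at caup and mirr and not at ara.

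**Figure D3:**
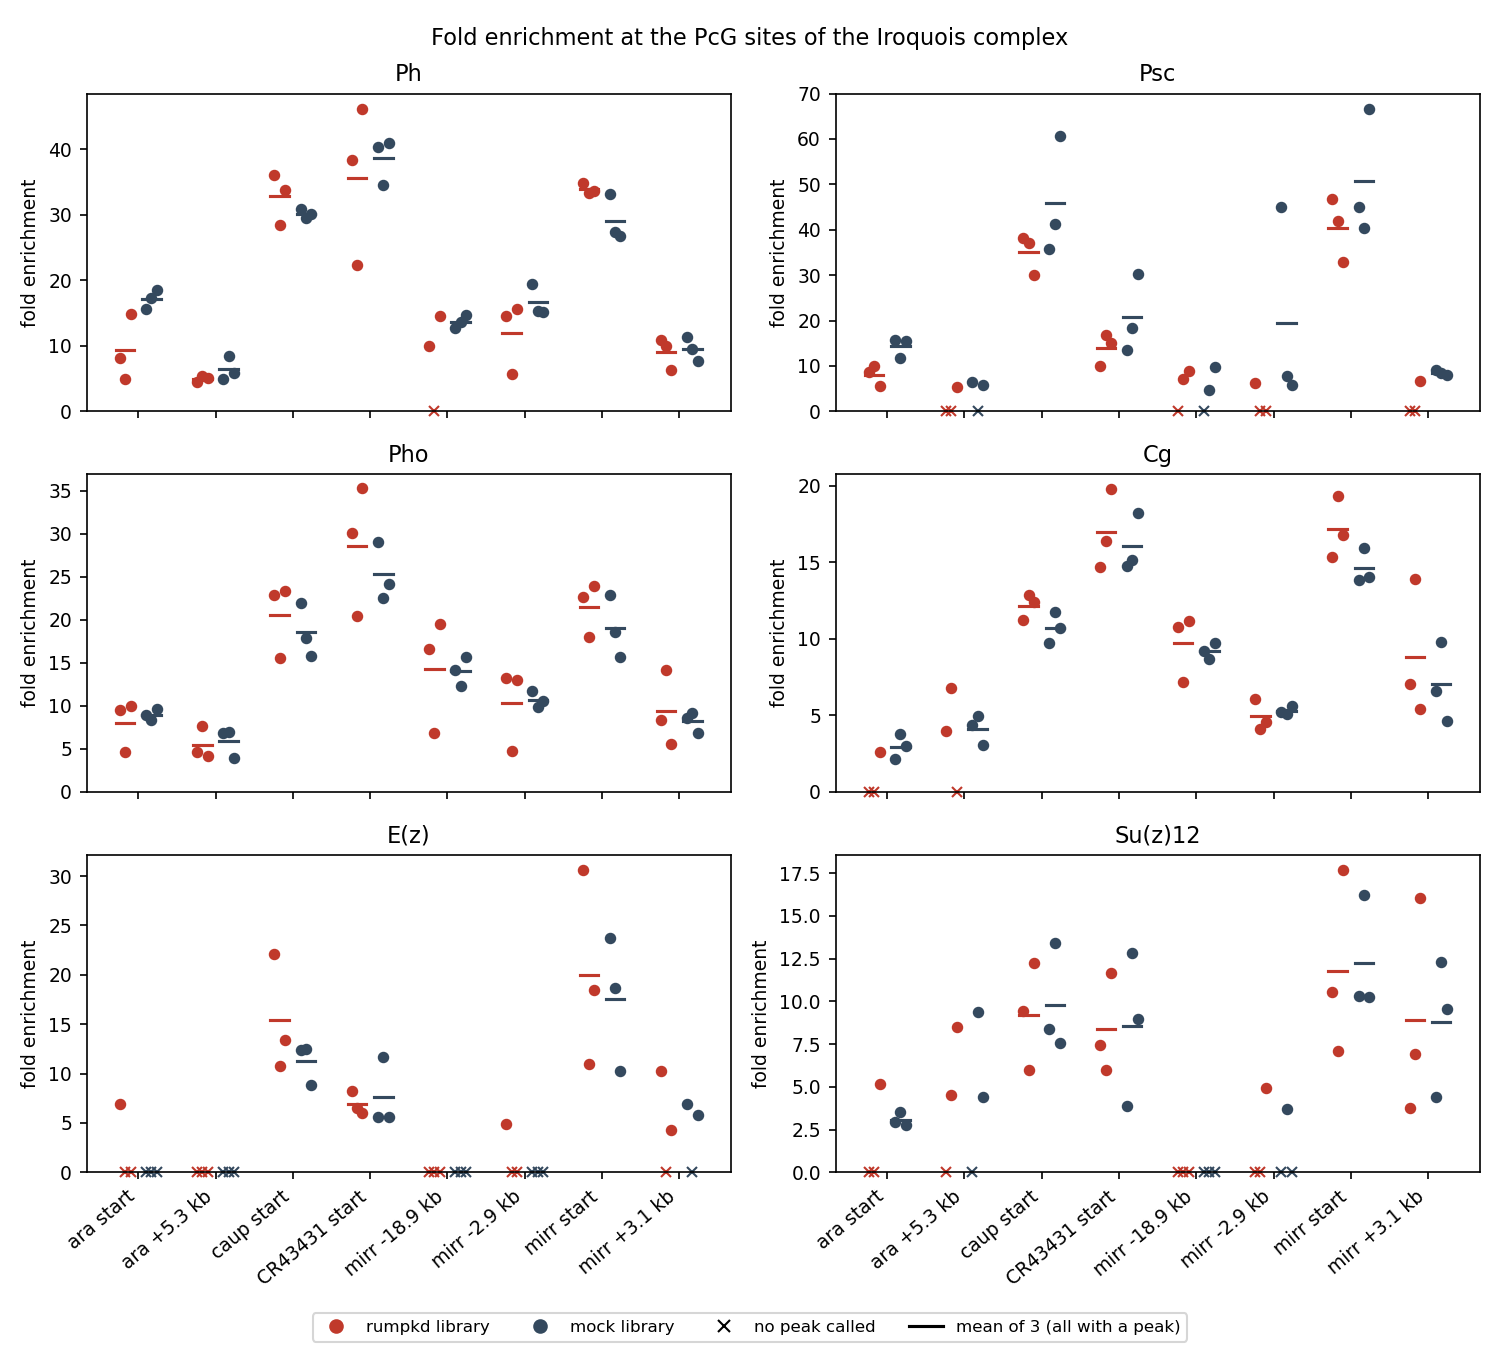
Fold enrichment over input at the 8 PcG sites of the span, from left to right along the chromosome, for 6 targets, with 1 point per library (rumpkd left of mock), a cross at 0 where no peak was called and a bar for the mean where all 3 libraries had a peak. The starts of caup, lncRNA:CR43431 and mirr stood highest for Ph, Psc and Pho. The Psc value of 44.9 in mock replicate 1 at the site 2.9 kb upstream of mirr belongs to a single long peak that also covers the mirr start.

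The other PcG sites were the ones 18.9 kb and 2.92 kb upstream of mirr, the exon of mirr 3.11 kb from its start and an exon of ara 5.32 kb from its start. The exon sites lay in coding sequence for 100% of their length in ara and 76.8% in mirr. Ph in the ara exon was weakest on average of the sites with a peak in all 6 libraries, with 4.41, 5.36 and 5.11 in rumpkd libraries and 4.98, 8.49 and 5.79 in mock libraries. At the mirr exon Ph was 10.9, 9.91 and 6.27 in rumpkd libraries and 11.4, 9.53 and 7.61 in mock libraries. The site 18.9 kb upstream of mirr had no Ph peak in rumpkd replicate 2 and values of 9.99 and 14.6 in the other rumpkd libraries, against 12.7, 13.7 and 14.7 in mock libraries. It held no PRC2 peak in any library. At the site 2.92 kb upstream Ph was 14.5, 5.64 and 15.7 in rumpkd libraries and 19.4, 15.3 and 15.2 in mock libraries. Rumpkd replicate 2 was thus the lowest library for Ph at both upstream sites and at the starts of ara, caup and lncRNA:CR43431, but not at the mirr start or in the exons.

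Of the 7 sites in the windows, 4 had a Psc peak in at least 2 rumpkd libraries and 7 in at least 2 mock libraries. Over all 421 PcG sites these shares were 68.4% in rumpkd cells and 98.6% in mock cells. Psc was itself part of the definition of a PcG site, so these shares are no independent comparison of the conditions. A site where only 1 rumpkd library had a Psc peak could not qualify without Psc peaks in mock cells. The ara exon, the mirr exon and the site 2.92 kb upstream of mirr were such sites. Psc peaks in the windows numbered 4, 4 and 6 in rumpkd libraries and 27, 16 and 7 in mock libraries, groups that did not overlap (log2 difference -1.48, exact two-sided p = 0.1, the smallest that 3 against 3 libraries allow, and 1 after adjustment over 13 targets). The full Psc lists were shorter too, 322, 398 and 372 peaks in rumpkd libraries and 881, 723 and 845 in mock libraries. With lists cut to equal length the log2 difference in the windows was -0.088. Of 28 Psc regions in the windows, 22 had no rumpkd peak, and 14 had a peak in mock replicate 1 alone. The shares of such regions over all 1321 Psc regions were not determined, so these counts do not show a trait of the locus. Without mock replicate 1 the log2 difference in peak number was -1.06.

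For the other 12 targets the number of peaks in the windows differed by less. Crol had 15, 14 and 14 peaks in rumpkd libraries and 10, 14 and 14 in mock libraries, and Ph had 9, 8 and 12 in rumpkd libraries and 10, 13 and 12 in mock libraries. Su(z)12 varied most between replicates, with 3, 4 and 15 peaks in rumpkd libraries and 4, 10 and 9 in mock libraries, in lists of 315 to 4267 peaks. The exact p over these 12 targets was 0.3 or more, and 1 after adjustment. A region was called gained when it had a peak in every rumpkd library and in no mock library, and lost in the opposite case. No region in the windows was lost for any target and 1 was gained, for Crol. Over the genome, lost regions made up 4.44% of H3K27me3, 3.79% of Psc, 1.52% of Ph and 1.40% of Crol regions. Each other target had less than 1%. With 28 regions in the windows for Psc and fewer for the other targets, an absence of lost regions differs little from these shares.

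Crol, a zinc finger protein found at Polycomb response elements, was present in at least 2 libraries of each condition at all 7 PcG sites of the windows, against 83.6% of all PcG sites in rumpkd cells and 85.7% in mock cells. It formed 16 regions in the windows, of which 10 had a peak in all 6 libraries and could be compared by fold enrichment. Of these 10, 3 were higher in rumpkd cells by limma with Benjamini-Hochberg adjustment over 4999 Crol regions and none was lower, while 8.44% of the 4999 were higher and 10.5% were lower. No region in the windows was lower at an unadjusted p under 0.05 either. The median log2 difference was 0.33 over the 10 regions and -0.06 over all 4999.

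All 3 higher regions overlapped coding sequence, but so did regions that were not called. Those lay in caup 10.4 kb from its start (79.6% coding, limma adjusted p = 0.212) and in mirr 3.05 kb from its start (31.5% coding, limma adjusted p = 0.115). The coding share of all 4999 regions was not determined. Each of the genes held 1 of the 3 higher regions. In ara it was the coding exon of the PcG site (chr3L:12585699-12586282), with a Crol enrichment of 6.96, 8.30 and 6.11 in rumpkd libraries and 3.11, 5.70 and 5.24 in mock libraries. The log2 difference, centred on the median of each library, was 0.54 ± 0.19 (limma adjusted p = 0.0364). In caup it lay 7.50 kb from the start (chr3L:12616766-12617494, 66.7% coding), with 4.98, 5.11 and 5.01 in rumpkd libraries and 1.78, 3.06 and 4.55 in mock libraries. Its log2 difference was 0.68 ± 0.19 (limma adjusted p = 0.0128). In mirr it lay 14.9 kb from the start (chr3L:12707981-12709136, 94.6% coding), with 5.85, 6.61 and 5.67 in rumpkd libraries and 2.64, 4.81 and 4.64 in mock libraries, and a log2 difference of 0.53 ± 0.19 (limma adjusted p = 0.0391). At each of these regions every rumpkd library exceeded every mock library, as at 14.5% of the 4999. Mock replicate 1 was lowest throughout, and its median Crol enrichment over the 4999 regions was 3.81, against 4.87 to 5.55 in rumpkd libraries and 5.28 and 5.80 in the other mock libraries. Rumpkd replicate 2 was the highest rumpkd library for Crol at all 3 regions, and also for the Cg and Pho peaks that overlapped them. In mock cells the labels name a single input for replicate 2 of Crol, Ph, Pho and Cg. Whether the rumpkd libraries shared an input was not determined, so agreement between these targets may not be independent. In the mirr region Cg was 2.86, 6.64 and 3.12 in rumpkd libraries and 4.08, 4.51 and 2.72 in mock libraries.

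The calls depended on single libraries and on centring, while the log2 differences remained positive, at 0.42 to 0.88 without any 1 library and 0.64 at ara, 0.79 at caup and 0.63 at mirr without centring. None of the 3 regions passed limma without mock replicate 1 (adjusted p of 0.0666 to 0.118), rumpkd replicate 2 (0.0901 to 0.223) or rumpkd replicate 3 (0.103 to 0.160), only the caup region passed without rumpkd replicate 1 or mock replicate 3, and none passed without centring on library medians (adjusted p = 0.281 for each). Calls over all 4999 regions numbered 948, against 384 without mock replicate 1, 25 without rumpkd replicate 2, 30 without rumpkd replicate 3 and 0 without centring.

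**Figure D4:**
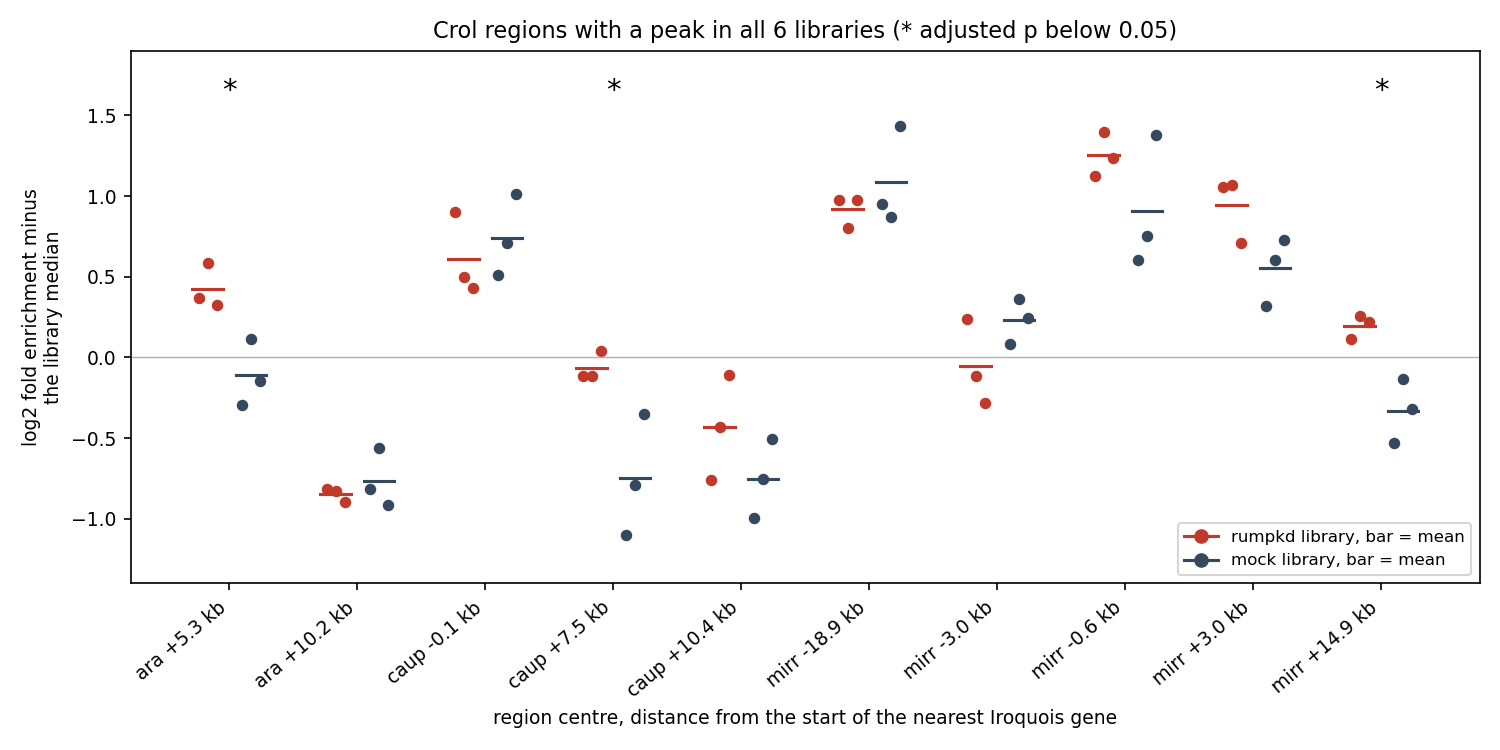
Log2 fold enrichment of Crol minus the library median at the 10 regions of the windows with a peak in all 6 libraries, 1 point per library with bars for means (rumpkd left of mock), named by distance of the region's centre from the nearest gene start. Stars mark the 3 regions past an adjusted p of 0.05, where all rumpkd points lie above all mock points.

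The 3 strongest Crol regions of the windows did not pass the test. They lay 18.9 kb upstream of mirr, at the mirr start and at the mirr exon 3.05 kb from it. At the first, Crol was 10.6, 9.67 and 9.57 in rumpkd libraries and 7.36, 9.66 and 15.7 in mock libraries. At the mirr start it was 11.8, 14.6 and 11.5 in rumpkd libraries and 5.80, 8.88 and 15.1 in mock libraries. At the exon it was 11.2, 11.6 and 7.96 in rumpkd libraries and 4.75, 8.03 and 9.63 in mock libraries. Mock replicate 3 was the highest library at the site 18.9 kb upstream and at the start, and the groups overlapped at all 3. Adjusted p by limma was 0.520, 0.176 and 0.115. At the caup start Crol was 10.1, 7.84 and 6.58 in rumpkd libraries and 5.43, 8.61 and 11.7 in mock libraries, and the start of ara held only weak peaks, 2.74, 2.46 and 1.87 in rumpkd libraries and 3.09 and 2.99 in mock replicates 2 and 3. At the lncRNA:CR43431 site in the gap Crol was 8.97, 7.38 and 6.97 in rumpkd libraries and 8.45, 8.48 and 12.5 in mock libraries, with a log2 difference of -0.43 ± 0.19 (limma adjusted p = 0.0881).

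The gained Crol region lay between genes, 14.5 kb from the caup start (chr3L:12623918-12624292). It was weak, with an enrichment of 2.45, 2.74 and 2.70 in the rumpkd libraries and no peak in mock libraries. Of all 13679 Crol regions, 7.16% were gained, and the rumpkd lists were longer, with 11117, 9883 and 10027 peaks against 7214, 8903 and 8693 in mock libraries. With lists of equal length it was not gained.

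For the other 10 narrow-peak targets, 41 regions in the windows had a peak in all 6 libraries. None differed by limma (adjusted p of 0.05), nor did any of the 21267 such regions in the genome. At an unadjusted p under 0.05 there was 1 in the windows, a Su(Hw) region in mirr, and 658 of 21267 in the genome (3.09%).

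In the windows Pho was strongest at the starts of mirr and caup, with 22.7, 17.9 and 23.9 in rumpkd libraries and 22.9, 18.5 and 15.6 in mock libraries at mirr. At caup it was 22.8, 15.5 and 23.4 in rumpkd libraries and 21.9, 17.9 and 15.8 in mock libraries. The third was the site 18.9 kb upstream of mirr, with 16.6, 6.79 and 19.5 in rumpkd libraries and 14.2, 12.3 and 15.6 in mock libraries. Rumpkd replicate 2 was the lowest rumpkd library at these sites, and the groups overlapped at each. In the exons it was the highest. In the mirr exon 3.10 kb from the start Pho was 8.37, 14.2 and 5.53 in rumpkd libraries and 8.63, 9.18 and 6.79 in mock libraries, and in the ara exon 4.66, 7.60 and 4.14 in rumpkd libraries and 6.80, 7.00 and 3.98 in mock libraries.

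Cg was strongest in the whole span at the lncRNA:CR43431 site in the gap, with 14.7, 16.4 and 19.8 in rumpkd libraries and 14.8, 15.2 and 18.2 in mock libraries. In the windows it was strongest at the mirr start, with 15.3, 19.4 and 16.8 in rumpkd libraries and 13.9, 15.9 and 14.0 in mock libraries. At the caup start it was 11.2, 12.8 and 12.4 in rumpkd libraries and 9.72, 11.7 and 10.7 in mock libraries. At the site 18.9 kb upstream of mirr it was 10.7, 7.17 and 11.2 in rumpkd libraries and 9.19, 8.70 and 9.74 in mock libraries. The ranges overlapped at these 3 sites in the windows, and the log2 differences were 0.28 ± 0.16, 0.24 ± 0.14 and 0.10 ± 0.19 (limma adjusted p of 0.883 to 0.921). Cg also stood at the sowah start, left of the domain, with CP190.

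Among the insulator proteins, CP190, a subunit shared by several insulators, had no peak in any library at the 7 PcG sites in the windows, against 9.74% of all PcG sites with a peak in at least 2 libraries, both in rumpkd and in mock cells. Its strongest regions in the windows were in lncRNA:CR32111, at the sowah start and right of mirr. In lncRNA:CR32111 (chr3L:12633088-12633732) CP190 was 7.53, 7.73 and 8.00 in rumpkd libraries and 7.78, 7.42 and 6.77 in mock libraries. At the sowah start it was 7.28, 9.04 and 6.79 in rumpkd libraries and 8.22, 6.38 and 7.15 in mock libraries. Right of mirr (chr3L:12726387-12727739) it was 4.25, 5.28 and 7.16 in rumpkd libraries and 6.36, 7.73 and 4.77 in mock libraries. The conditions overlapped at each of these regions.

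Su(Hw), the DNA-binding subunit of the gypsy insulator, had 5 regions in the windows, each with a peak in all 6 libraries. The strongest was in the last part of mirr (chr3L:12707282-12709008), with 7.58, 9.71 and 7.66 in rumpkd libraries, all below the 10.7, 12.1 and 10.7 of mock libraries, as at 1.95% of 3430 Su(Hw) regions. Its log2 difference of -0.50 ± 0.18 did not pass limma (adjusted p = 0.835). It overlapped the mirr region in which Crol was higher. The next was the lncRNA:CR32111 region shared with CP190, with 8.87, 7.99 and 10.3 in rumpkd libraries and 7.36, 10.6 and 9.94 in mock libraries. At the mirr start Su(Hw) was 6.14, 6.84 and 8.56 in rumpkd libraries and 6.59, 8.91 and 7.51 in mock libraries. Su(Hw) thus met PcG proteins at 2 of the 7 PcG sites, the mirr start and the mirr exon, against 16.2% of all PcG sites in rumpkd cells and 22.3% in mock cells.

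Mod(mdg4), the other gypsy protein, had 1 region in the windows with a peak in all 6 libraries, the mirr exon, with 6.77, 6.21 and 4.94 in rumpkd libraries and 8.10, 5.86 and 4.78 in mock libraries. At the mirr start it had a peak in rumpkd replicate 1 (5.88) and in all 3 mock libraries (5.94, 5.72 and 4.81). In replicate 1 alone it also had peaks in the ara exon (4.69 in rumpkd and 4.27 in mock cells) and at the caup start (4.41 in rumpkd and 3.60 in mock cells). At the sowah start it had a peak in mock replicate 1 only (4.84). In both replicate 1 libraries the mirr exon and the mirr start exceeded these. Replicate 1 lists of Mod(mdg4) were longer, with 4892 peaks in rumpkd cells and 5059 in mock cells against 1734 to 2917 in the other 4 lists. Sites with all 3 gypsy proteins, CP190 included, in all 6 libraries of each were absent from the windows and present once in the gap, in an exon of lncRNA:CR32111. Mod(mdg4) was 12.7, 8.69 and 15.9 there in rumpkd libraries and 14.1, 10.0 and 15.6 in mock libraries.

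CTCF had a single peak in the windows, in rumpkd replicate 2 (2.82). In the gap it had 1 region with a peak in all 6 libraries (chr3L:12667805-12668722), with 7.25, 8.13 and 5.13 in rumpkd libraries and 3.80, 8.89 and 8.35 in mock libraries. Ph lost a region that partly overlapped it (chr3L:12667355-12668020), with no peak in rumpkd libraries and 4.20, 4.05 and 5.47 in mock libraries. Of all 3495 Ph regions, 1.52% were lost, and Ph lists held 1450, 1983 and 2278 peaks in rumpkd cells and 2132, 2769 and 2137 in mock cells. Cg in the same place was 5.21, 3.99 and 4.26 in rumpkd libraries and 6.77, 6.65 and 8.02 in mock libraries, with a log2 difference of -0.62 ± 0.17 that did not pass limma over all Cg regions (adjusted p = 0.883). The share of Cg regions with groups apart in this way was not determined. A Crol region also met the CTCF and Cg regions (chr3L:12668245-12668840). It was 4.48, 4.45 and 3.77 in rumpkd libraries and 3.00, 4.49 and 4.62 in mock libraries (log2 difference -0.02 ± 0.19, limma adjusted p = 0.956). Pho had a region here with a peak in 1 rumpkd and 3 mock libraries, and another with a peak in 2 mock libraries only.

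H3K27me3 was also compared over genes that act with the Iroquois genes. Of 10 genes known to regulate them or the signals upstream of them, 3 had H3K27me3 over at least 50% of their span in all 4 libraries. These were pnr, the GATA factor of the notum, with 2 PcG sites, the JAK/STAT ligand upd1 with 2, and the wing gene salm with 2. Their cover was 90.9% to 91.4% in rumpkd libraries and 91.0% to 91.8% in mock libraries for pnr, and 100% in all libraries for upd1 and salm. Cover was partial in all libraries for hh (37.6% and 33.1% in rumpkd, 35.0% and 96.3% in mock libraries), Egfr (37.6% and 19.3% in rumpkd, 47.2% and 47.4% in mock libraries) and vn (22.6% and 10.2% in rumpkd, 22.1% and 28.1% in mock libraries). None of 7 genes known as targets (ac, sc, l(1)sc, ase, rho, fng and pip) was covered to that extent in all 4 libraries, and the proneural genes ac, sc, l(1)sc and ase had no cover in any library. For rho, which promotes EGF receptor signalling in veins, cover was 100% in rumpkd replicate 1 and 0% in the other 3 libraries. Of 4 other TALE homeobox genes only hth was covered, by 100% and 93.2% in rumpkd libraries and 100% in both mock libraries, with 5 PcG sites. Over all 18432 genes on the chromosome arms the share covered in all 4 libraries was 2.83%.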

How the data were processed

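Peak lists of 76 ChIP-seq libraries were used. According to the methods and labels, the authors trimmed reads with Trim Galore 0.6.7, aligned them to dm6 with Bowtie2 2.5.3, removed duplicates and blacklisted regions and called peaks with MACS2 2.2.7.1 in single libraries. The calling threshold is not given in the sources used here. The deposited fold enrichment is a ratio of ChIP over input signal, so read depth is unknown. The deposited −log10 p and −log10 q, and the score made from them, are those of the authors' MACS2 run. The 34 input samples have no list, and 17 of them, titled rumpkd but labelled with GFP dsRNA, were given no condition. Titles of the mock inputs often name several targets, so fold enrichments of different targets can share an input and need not be independent. In 18 lists (Su(z)12, E(z), Psc) peak names carry another replicate number than the label, which was followed.

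Gene models were those of Ensembl and sequences those of RefSeq, on the same assembly. Overlapping peaks of a target (by 1 bp or more) formed a region. Regions with a peak in all libraries were tested with limma 3.58.1 (R 4.3.3) on log2 fold enrichment centred on library medians, with Benjamini-Hochberg adjustment over all such regions of the target and a threshold of 0.05, after a test on simulated data. Cover and peak numbers (log2 of peaks plus 1) went into exact two-sided permutation tests (Python 3.11.15, numpy 2.4.6, pandas 2.3.3). The labels call the libraries biological replicates. Same-numbered rumpkd and mock libraries deviated together for Pho (r of 0.37, 0.59 and 0.44), Ph (0.31, 0.50 and 0.40) and Psc (0.44, 0.44 and 0.37), a pairing seen in the data only, and not throughout for the other 8 narrow-peak targets. Regions named were PcG sites, gained or lost regions, regions past the threshold, the 3 strongest of each insulator protein, Crol, Cg and Pho by mean percentile of fold enrichment (libraries without a peak left out), and a gene list. Other regions, those in the gap included, were named after their values were seen. The members, lists and tests were chosen with earlier results of these data known.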

Additional observations from a re-analysis of the deposited data

How the results depend on the processing

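Windows, thresholds, list lengths, single libraries and the replicate block were varied. With lists of equal length the log2 difference in peak number (rumpkd minus mock) changed sign for Crol (-0.11), Cg (0.15), Pc (0.24) and E(z) (-0.14), and with a −log10 q of at least 10 for E(z) (-0.031) and Su(Hw) (-0.088). For CP190 it was 0, and -0.057 over the whole span. Leaving out 1 library gave -0.19 to 0.014 for Pho, -0.069 to 0.43 for E(z), -0.87 to 0.13 for Su(z)12 and -0.088 to 0.088 for CP190, and for Psc -1.96 to -1.06. With a −log10 q of at least 20 the Pc difference was 0.59 points for the caup gene, -5.80 points for the ara gene, -1.43 points for the mirr gene and 7.49 points for the mirr window, and that of H3K27me3 was -100 points for the 3 genes and the caup window, -75.0 points for the ara window and -99.4 points for the mirr window. Leaving out 1 library gave Pc differences of -7.89 to -1.55 points for the ara gene, -27.7 to -3.43 points for the mirr gene, -15.9 to 4.05 points for the caup gene, -6.33 to 0.45 points for the caup window and -17.6 to 2.33 points for the mirr window, the positive ends without rumpkd replicate 1. The cause was not tested for these.

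Gained regions numbered 2 with a −log10 q of at least 10, 0 with lists of equal length and 1 to 2 without 1 library, and lost regions 0 to 6, the 6 being Psc regions found without mock replicate 3. Regions higher in rumpkd cells numbered 0 without centring, 4 with quantile normalization and 0 to 3 without 1 library. With the replicate block they numbered 3, as without it, and the exact p of the Psc peak number was 0.25, the smallest that 3 pairs allow. The block changed no other call in the windows. Over all 4999 Crol regions it raised the calls from 948 (422 higher and 526 lower) to 1402 (673 higher and 729 lower). PcG sites in the windows numbered 4 when peaks were asked for in all 6 libraries and 12 when 1 sufficed. In peak lists an absent peak is a value below the calling threshold and no measure of zero binding, fold enrichment cannot be traced to read numbers, and 3 libraries per condition allow no exact p below 0.1.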
